A study of Mus musculus with 3008 samples.

Results

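Glucose use in regulatory T cells was followed here through 34 genes that encode glucose transporters, the enzymes of glycolysis, lactate formation and export, the entry of pyruvate into mitochondria, and the pentose phosphate pathway. The genes were listed by function, step by step, with no measured value in the rule, and all 34 were found among the 23725 genes of the deposited count table. The cells were Foxp3+ regulatory T cells (Tregs), CD4+ T cells that restrain immune responses, from male mice of the B6 Foxp3-Ires-Gfp strain at 7 months of age. Every cell in both tissues came from this reporter strain, in which green fluorescent protein marks cells that transcribe Foxp3, and no treated or reporter-free animals were compared. Live cells were sorted as DAPI- TCRb+ CD4+ GFP+ and read by inDrops, which captures single cells in droplets. Of the 3008 cells, 20.5% made 1 spleen library, after mechanical dissociation. Cells of the colon lamina propria, the tissue layer below the gut lining, were freed with collagenase and dispase and made 2 libraries, called colon 1 (20.6% of the cells) and colon 2 (1772 cells). Tissue and way of dissociation therefore cannot be told apart. No animal is named in the labels, and the second colon library is a second replicate by its title but carries the number of the first in its sample type. Each tissue was treated as 1 sample, so no p-value was computed, and the same spleen library is the denominator of every ratio.

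Glycolysis splits glucose into pyruvate in the cytosol and yields ATP and NADH. Pyruvate can be reduced to lactate, which regenerates NAD+ and is exported, or imported into mitochondria and burned. Foxp3+ Tregs are known to lean on mitochondrial oxidation more than effector T cells do, while glycolysis is known to accompany Treg activation, division and migration into tissues.

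Transcripts were counted as unique molecular identifiers (UMIs), tags that count each captured RNA molecule once. Each library's UMIs were added up over its cells and given per 1000000 UMIs (CPM). The library totals were 1255946, 1253246 and 3916649 UMIs for spleen, colon 1 and colon 2, and the median cell held 1847, 1767 and 2026.5 UMIs. Values given in sets of 3 stand in that order throughout. Foxp3 was read at 281.9, 452.4 and 306.1 CPM and Cd4 at 305.7, 640 and 905.4 CPM, and 11 Treg and T cell identity genes summed to 4662, 9521 and 9408 CPM. Ribosomal protein genes took 28.2% of the UMIs in spleen but 17.5% and 16.1% in the colon libraries, a difference that moves every value scaled by the total. By the read numbers in the labels, the median cell had 58.7, 61.6 and 26.7 reads per UMI. Between 5 and 11 cell barcodes were shared by any pair of libraries. Intervals are 95% intervals of counting error only.

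The middle and end of glycolysis were higher in both colon libraries, and the entry of pyruvate into mitochondria was not. Summed over the 4 genes of each step, the triose steps stood at 566.9, 1153.01 and 1162.2 CPM, the lower steps from Pgk1 to Pkm at 515.9, 967.1 and 1295.2 CPM, and the lactate genes at 360.7, 653.5 and 784.3 CPM. These were 2.03 and 2.05 times, 1.87 and 2.51 times, and 1.81 and 2.17 times the spleen level in colon 1 and colon 2. Of the lower-step genes, Eno1 had 0 UMIs in every library, so the sum of that step holds no enolase UMIs. The 2 glucose transporters summed to 78.8, 84.6 and 98.8 CPM, with ratios of 1.07 (interval 0.81 to 1.43) and 1.25 (1.003 to 1.58). The 7 hexose phosphate genes summed to 413.2, 458.01 and 495.1 CPM, and the 5 pentose phosphate genes to 504.8, 532.2 and 511.9 CPM. The 8 pyruvate entry genes summed to 438.7, 329.5 and 401.9 CPM, which was 0.75 and 0.92 times the spleen level. All 34 genes together took 2879, 4178 and 4749 CPM, so that the colon cells held 1.45 and 1.65 times as much of their captured RNA in this group. Without Gapdh, the most counted of them, the ratios were 1.39 and 1.61.

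**Figure D1:**
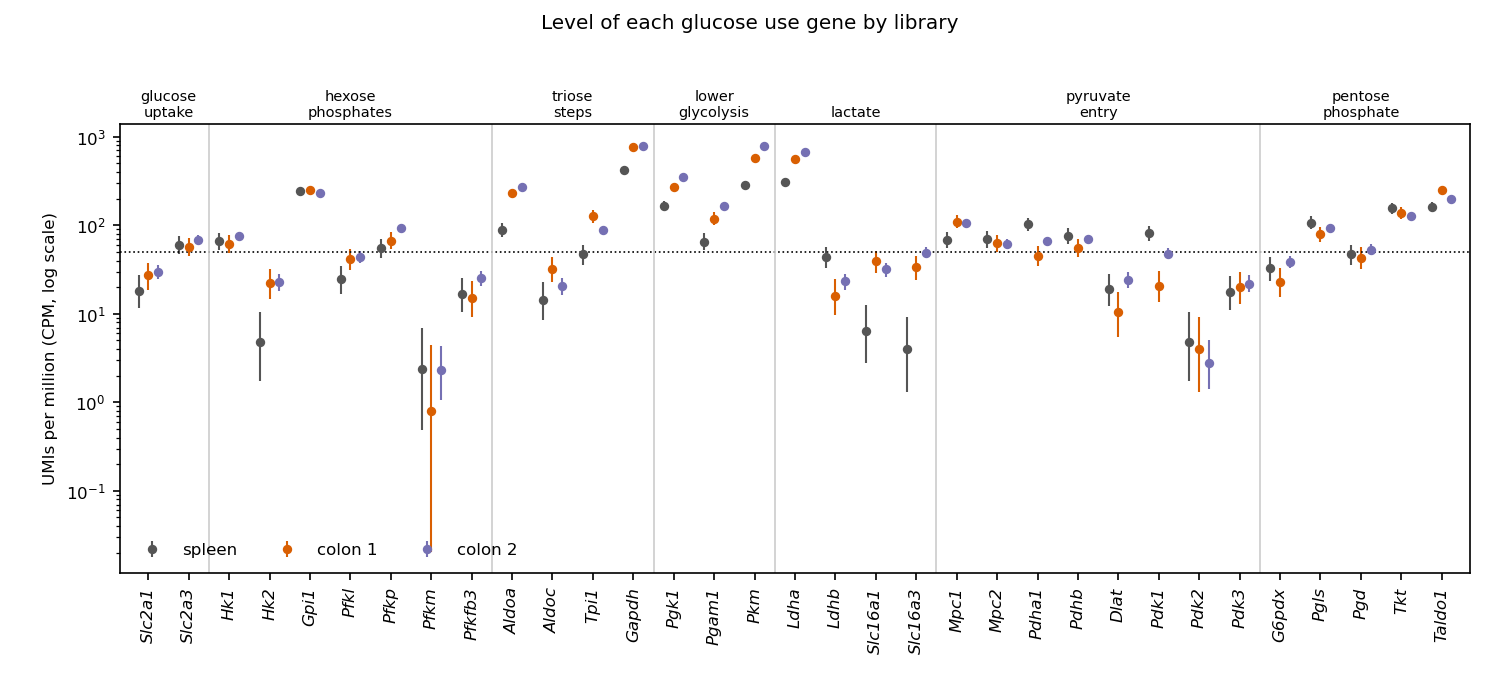
Level of each gene in CPM (log axis) in spleen, colon 1 and colon 2, in pathway order, with exact Poisson 95% intervals; the dotted line is the 50 CPM threshold. Eno1 had no UMI in any library and is left out. Aldoa, Gapdh, Pgk1, Pgam1, Pkm and Ldha stand above the spleen level in both colon libraries, while Gpi1, Slc2a3 and Hk1 lie close together in the 3 libraries.

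A gene was counted when it reached 50 CPM in spleen or in both colon libraries, which 3482 genes of the table did. Of the 34 genes, 19 passed: 18 by their spleen level and Tpi1 only by its colon level, so that its ratio had to lie above 1. The other 15 did not meet this rule and are described by their levels and UMIs. Among them, Pgd reached 53.1 CPM in colon 2 but not 50 CPM in spleen or colon 1. Of the 19, 2 genes (10.5%), Aldoa and Pkm, reached a ratio of 2 over spleen in both colon libraries, beside 11.7% of all counted genes, so at this size the group did not stand apart from the background. None was at least 2-fold lower, beside 4.45% of all counted genes. At 1.5-fold, a size given weight after the values were seen, 8 of the 19 (42.1%) were higher in both, beside 19.5% of all counted genes. These were Aldoa, Tpi1, Gapdh, Pgk1, Pgam1, Pkm, Ldha and Mpc1. At the same size 2 were lower, Pdha1 and Pdk1 (10.5%), beside 12% of all. The median log2 ratio of the 19 genes was 0.29 in colon 1 and 0.30 in colon 2, where the medians over all 3482 genes were 0.03 and 0.05. With library totals taken without ribosomal protein genes, the median over all counted genes fell by 0.25, and the group's own median, 0.46 from the mean of both colon libraries, was 0.0465 over the 22 genes then counted. In that setting Aldoa alone stayed above 2-fold (4.55%), beside 8.04% of all counted genes, and 6 genes above 1.5-fold, beside 12.7%. Against spleen, colon 1 without colon 2 gave 3 genes at least 2-fold higher and 2 lower (Pdha1 and Pdk1), beside 13.1% and 6.67% of all counted genes. Colon 2 without colon 1 gave 5 higher, beside 15.3%. Aldoa, Gapdh, Pgam1, Pkm and Ldha were at least 1.5-fold higher under all 14 settings of scaling, filter, cells and libraries that were tried, the reported one included, in each colon library that the setting kept. Under single settings 12.7% to 27.2% of all counted genes were that much higher. The share that was so under all 14 was not computed, and every setting draws on the same 3 libraries.

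**Figure D2:**
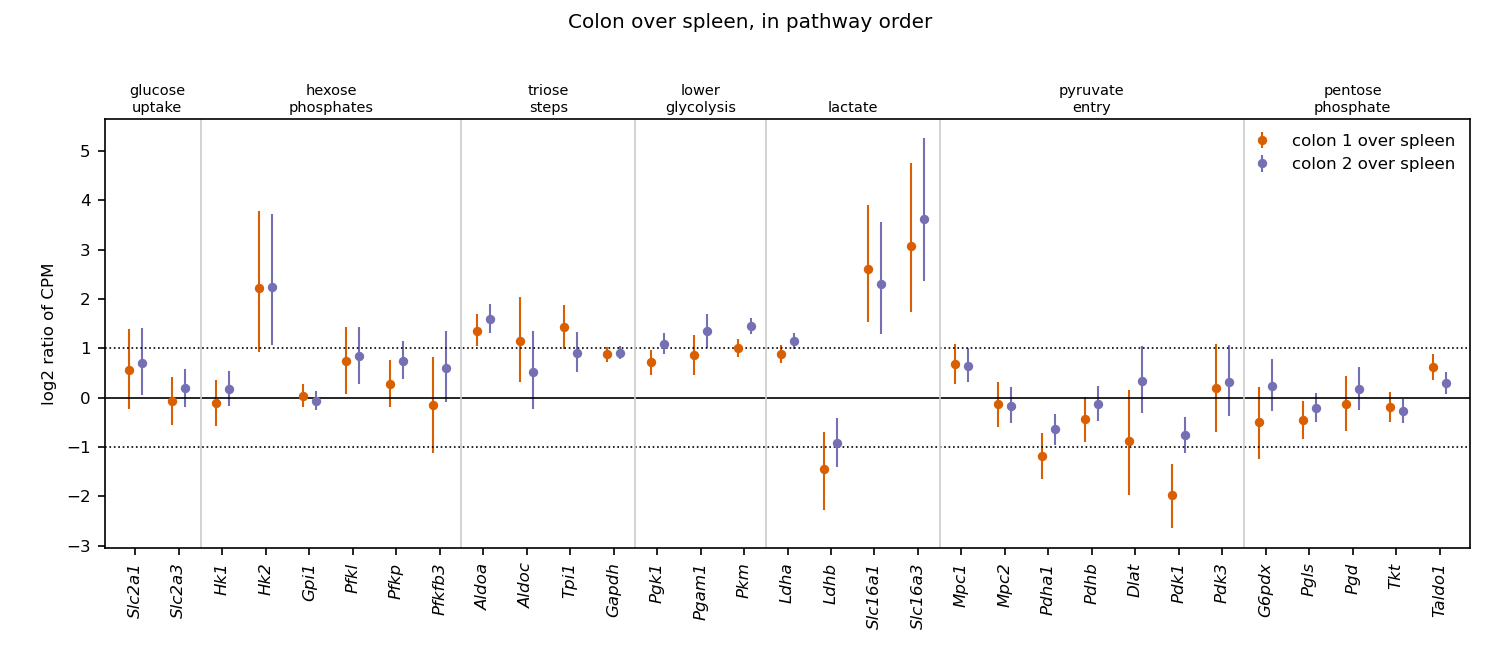
log2 ratio of CPM, colon 1 and colon 2 over spleen, for the genes with at least 30 UMIs over the 3 libraries, in pathway order, with exact 95% intervals of counting error. The solid line marks no difference and the dotted lines 2-fold; the points from Aldoa to Ldha lie above 0, Ldhb, Pdha1 and Pdk1 lie below 0, and Hk2, Slc16a1 and Slc16a3 lie highest with wide intervals.

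Glucose uptake differed little in total. Slc2a1 encodes GLUT1, the transporter that activated T cells raise at their surface, and was read at 18.3, 27.1 and 29.9 CPM. Its ratios were 1.48 (0.85 to 2.63) and 1.63 (1.04 to 2.67), on 23 spleen UMIs. Slc2a3, which encodes the high-affinity transporter GLUT3, was read at 60.5, 57.5 and 68.9 CPM, and its ratios of 0.95 and 1.14 both had intervals that held 1. GLUT3 transcripts made up 76.8% of the UMIs of both transporters in spleen, 67.9% in colon 1 and 69.8% in colon 2, with overlapping intervals.

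Among the enzymes that trap and rearrange hexose phosphates, the scarce inducible hexokinase was higher in colon and the well-counted genes differed little. Hexokinase traps glucose as glucose 6-phosphate. Hk1, the constitutive form, stood at 66.1, 61.4 and 74.8 CPM. Hk2, the inducible form, stood at 4.78, 22.3 and 22.7 CPM, which was 4.68 (1.90 to 13.8) and 4.76 (2.10 to 13.3) times spleen on 6 spleen UMIs in 4 cells. The share of Hk2 among hexokinase UMIs was 6.74% (2.51 to 14.1) in spleen, 26.7% (18.5 to 36.2) in colon 1 and 23.3% (19.1 to 27.9) in colon 2. This share needs no library total, and its spleen interval did not reach that of either colon library. Gpi1, which turns glucose 6-phosphate into fructose 6-phosphate, was read at 243.6, 250 and 233.4 CPM and lay nearest to the spleen level of the 19 counted genes on the mean of both colon libraries, with ratios of 1.03 and 0.96.

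Phosphofructokinase commits the sugar to glycolysis. Its platelet-type subunit Pfkp was read at 54.9, 67.03 and 92.4 CPM (ratios 1.22 and 1.68), and its liver-type subunit Pfkl at 24.7, 41.5 and 44.2 CPM (1.68 and 1.79). The muscle-type subunit Pfkm had 3, 1 and 9 UMIs. Pfkp held 66.99%, 61.3% and 66.5% of the family's UMIs, so the makeup of the enzyme's transcripts was alike within counting error. Pfkfb3, which makes the activator fructose 2,6-bisphosphate, stood at 16.7, 15.2 and 25.3 CPM, below spleen in colon 1 and above it in colon 2 with intervals that held 1 in both.

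The triose steps held Aldoa, whose mean log2 ratio over both colon libraries was the largest of the 19 counted genes. Aldoa, the main aldolase of lymphocytes (chr7:126795234-126800751), was read at 89.2, 229.01 and 270 CPM, so that both colon libraries lay above the spleen library. Its ratios were 2.57 (2.06 to 3.22) and 3.03 (2.49 to 3.71). Aldoc, the aldolase best known from brain, stood at 14.3, 31.9 and 20.7 CPM and made up 13.8%, 12.2% and 7.12% of aldolase UMIs. Tpi1, which interconverts the triose phosphates, was read at 46.98, 126.1 and 88.6 CPM (ratios 2.68 and 1.89). Gapdh, the enzyme of the step that makes NADH, was read at 416.4, 766.01 and 783.1 CPM, and its ratios of 1.84 (1.65 to 2.05) and 1.88 (1.71 to 2.07) were nearly equal in the colon libraries. Gapdh is often used as a constant reference gene, and in these libraries it was not constant between tissues.

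The lower steps, which make ATP and pyruvate, were higher in colon 2 than in colon 1. Pgk1, the first ATP-making kinase of the pathway, was read at 165.6, 272.9 and 352.6 CPM (ratios 1.65 and 2.13). Pgam1, which moves the phosphate within the product, was read at 65.3, 118.9 and 166.2 CPM (1.82 and 2.55). Pkm, pyruvate kinase (chr9:59656368-59679375), was read at 285.04, 575.3 and 776.4 CPM, with ratios of 2.02 (1.78 to 2.30) and 2.72 (2.44 to 3.05). The colon libraries themselves differed here, since Pkm was 1.35 times and Pgam1 1.40 times as high in colon 2 as in colon 1. UMIs cannot tell the splice forms of Pkm apart. Eno1, the enolase between these steps, had 0 UMIs in all 3 libraries, although enolase is needed by every glycolytic cell. The upper ends of the exact intervals are 2.94, 2.94 and 0.94 CPM. They hold for UMIs assigned to Eno1 and do not limit the level of its RNA. The last 300 bases of an Eno1 transcript matched the near-identical gene Eno1b at 99.7% identity, and Eno1b was read at 280.3, 345.5 and 392.4 CPM (ratios 1.23 and 1.40). Reads of these copies cannot be told apart at this end, so the Eno1b values are given as uncertain and enter no count. Near-identical copies of Gapdh, Tpi1 and Ldha are annotated too, but none of those copies had a row in the table, so where reads of a copy were counted is not known.

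Lactate formation differed by isozyme. Lactate dehydrogenase is a tetramer of A subunits (Ldha), which favour making lactate, and B subunits (Ldhb), which favour using it. Ldha (chr7:46841475-46855627) was read at 306.5, 564.9 and 680 CPM, with ratios of 1.84 (1.63 to 2.09) and 2.22 (1.99 to 2.48). Ldhb (chr6:142490249-142507957) was read at 43.8, 15.96 and 23.2 CPM, the opposite order, with ratios of 0.36 (0.21 to 0.62) and 0.53 (0.38 to 0.76). Ldha made up 87.5% (84.04 to 90.4) of lactate dehydrogenase UMIs in spleen, 97.3% (95.8 to 98.3) in colon 1 and 96.7% (95.96 to 97.3) in colon 2. In these data the genes of both subunits differed in opposite directions, and their share again needs no library total.

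The lactate exporters were scarce in spleen and readily counted in colon. Slc16a3 encodes MCT4, the low-affinity exporter of highly glycolytic cells, and was read at 3.98, 33.5 and 49.02 CPM. Its 5 spleen UMIs, in 4 cells, gave ratios of 8.42 (3.34 to 27.3) and 12.3 (5.19 to 38.4), the highest of all 34 genes. Slc16a1 encodes MCT1, which carries lactate in either direction, and was read at 6.37, 39.1 and 31.7 CPM, with ratios of 6.14 (2.88 to 15.01) and 4.97 (2.45 to 11.8) on 8 spleen UMIs. Neither gene reached the 50 CPM threshold, so neither is among the 19 counted genes. MCT4 transcripts held 38.5% (13.9 to 68.4), 46.2% (35.6 to 56.9) and 60.8% (55.1 to 66.2) of the UMIs of this pair.

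**Figure D3:**
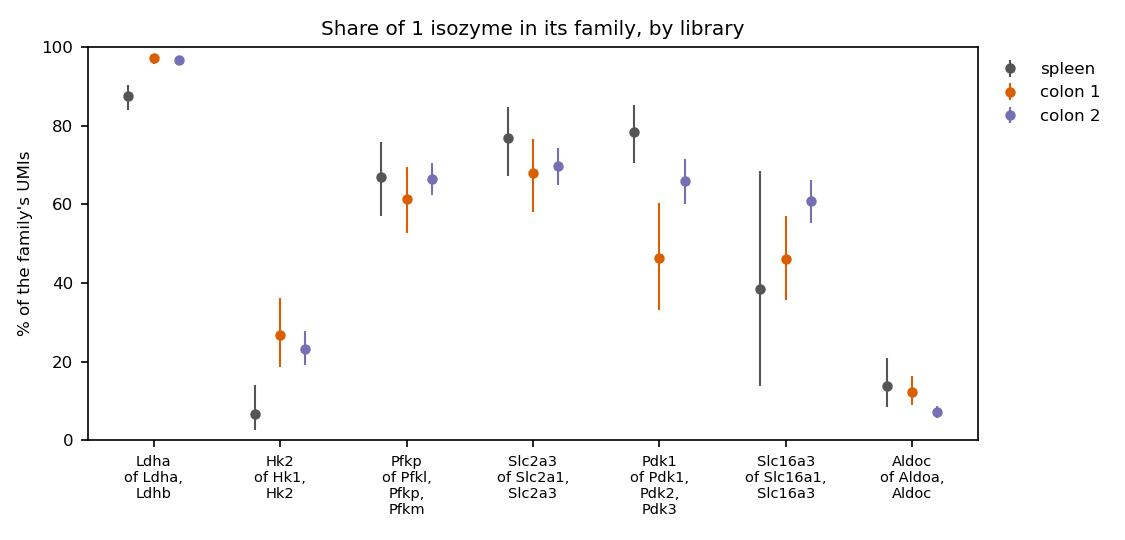
Share of 1 isozyme among its family's UMIs (percent) in spleen, colon 1 and colon 2, with exact Clopper-Pearson 95% intervals. Ldha and Hk2 hold larger shares in both colon libraries than in spleen, Pdk1 a smaller one, and the phosphofructokinase and glucose transporter families have overlapping intervals. The Pdk1 share is among Pdk1, Pdk2 and Pdk3 and leaves out Pdk4.

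The promoters of the isozyme pair and of genes with large ratios are shown because several glycolytic genes are classic targets of HIF-1, which binds the core ACGTG, and of MYC, which binds the E-box CACGTG. Each line gives the 250 bases before the RefSeq start on the mouse build GRCm38, 5′ to 3′ on the gene's strand, with every ACGTG of either strand in capitals (read as CACGT from the other strand). An E-box holds 1 such match on each strand and shows as 6 capitals. The RefSeq start of Ldha lies 4329 bases after the start of the annotated gene.
Ldha, chr7:46845554-46845803, plus strand: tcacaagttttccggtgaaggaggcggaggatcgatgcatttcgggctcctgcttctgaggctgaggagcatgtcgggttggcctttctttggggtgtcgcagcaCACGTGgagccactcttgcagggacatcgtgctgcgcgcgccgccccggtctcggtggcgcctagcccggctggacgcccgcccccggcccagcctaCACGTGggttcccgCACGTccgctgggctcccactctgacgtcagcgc
Ldhb, chr6:142507958-142508207, minus strand: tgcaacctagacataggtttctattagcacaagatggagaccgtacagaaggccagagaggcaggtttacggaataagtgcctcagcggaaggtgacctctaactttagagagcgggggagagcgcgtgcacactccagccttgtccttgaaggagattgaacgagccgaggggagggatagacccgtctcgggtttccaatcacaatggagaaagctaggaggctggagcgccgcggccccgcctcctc
Slc16a1, chr3:104638414-104638663, plus strand: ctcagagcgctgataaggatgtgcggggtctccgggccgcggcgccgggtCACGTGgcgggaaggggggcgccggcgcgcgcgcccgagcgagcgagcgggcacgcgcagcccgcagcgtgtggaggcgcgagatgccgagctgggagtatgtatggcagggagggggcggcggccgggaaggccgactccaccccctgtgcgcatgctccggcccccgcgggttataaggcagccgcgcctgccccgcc
Hk2, chr6:82774455-82774704, minus strand: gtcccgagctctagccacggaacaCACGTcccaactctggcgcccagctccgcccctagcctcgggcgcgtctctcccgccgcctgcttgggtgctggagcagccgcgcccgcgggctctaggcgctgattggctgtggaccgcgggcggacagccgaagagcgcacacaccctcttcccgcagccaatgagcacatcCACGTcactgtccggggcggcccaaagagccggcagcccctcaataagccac
The Ldha window held 5 core matches, 4 of them in 2 E-boxes, and the Ldhb window held 0. Slc16a1 held 2 matches in 1 E-box, and Hk2 held 2 with no E-box. A promoter was found for 33 of the 34 genes by symbol. ACGTG on either strand was in at least 1 window of 14 of these 33 (42.4%) and in 18.5% of all 27025 genes with windows of the same length, and CACGTG was in 5 (15.2%) and in 6.86% of all. The single windows of Gapdh and Tpi1, both higher in colon, held no match, nor did the 2 windows of Pdk1, which was lower. Of the windows of Aldoa 2 of 3 held one, of those of Pkm 1 of 2, and of those of Pdk2, which had few UMIs in every library, 1 of 2. Matches also lay in windows of Pgk1, Pgam1, Slc16a3 and Slc2a1. So did they in windows of Pdhb, Pdk3, Pfkfb3 and Pfkm, whose ratio intervals held 1 in both colon libraries. The shares were not matched for base composition, and a match shows only that the letters are there.

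Pyruvate entry was mixed, with Mpc1 higher and Pdha1 and Pdk1 lower in colon. Mpc1 and Mpc2 form the mitochondrial pyruvate carrier. Mpc1 was read at 68.5, 110 and 107.5 CPM (ratios 1.61 and 1.57), while its partner Mpc2 stood at 69.3, 63.04 and 62.04 CPM (0.91 and 0.90). Pdha1, the catalytic subunit of pyruvate dehydrogenase, was read at 102.7, 45.5 and 65.9 CPM, with ratios of 0.44 (0.32 to 0.61) and 0.64 (0.52 to 0.80). Its partner Pdhb stood at 75.6, 55.9 and 69.5 CPM, and Dlat, the next subunit of the complex, at 19.1, 10.4 and 24.3 CPM with ratios on both sides of 1.

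Pyruvate dehydrogenase kinases switch that complex off. Pdk1 (chr2:71873224-71903858), a well known HIF-1 target, was read at 81.2, 20.7 and 48 CPM, with ratios of 0.26 (0.16 to 0.40) and 0.59 (0.46 to 0.76). Both colon libraries lay below spleen, and colon 2 was 2.31 times as high as colon 1. Pdk3 stood at 17.5, 19.95 and 21.96 CPM and Pdk2 had 6, 5 and 11 UMIs. Among the UMIs of Pdk1, Pdk2 and Pdk3, Pdk1 made up 78.5% (70.4 to 85.2) in spleen, 46.4% (32.99 to 60.3) in colon 1 and 65.96% (60.1 to 71.4) in colon 2. Pdk4, a further kinase of this family outside the 34 genes, is not in these shares. It had 3, 36 and 39 UMIs (2.39, 28.7 and 9.96 CPM). Its ratios were 12.03 (3.80 to 61.04) and 4.17 (1.33 to 21.1), on few spleen UMIs. In colon 1 Pdk4 had more UMIs than Pdk1 (36 against 26).

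The pentose phosphate pathway, which makes NADPH and ribose, stayed near the spleen level. G6pdx, its entry enzyme, was read at 32.6, 23.1 and 38.6 CPM, Pgls at 107.5, 78.99 and 92.9 CPM and Pgd at 46.98, 43.1 and 53.1 CPM. None of these 3 reached 1.5-fold in either colon library. In the arm that returns sugars to glycolysis, Tkt was read at 156.1, 137.2 and 128.9 CPM (ratios 0.88 and 0.83) and Taldo1 at 161.6, 250 and 198.4 CPM, with ratios of 1.55 (1.29 to 1.85) and 1.23 (1.05 to 1.44).

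Within a library the transcripts were spread over most cells rather than held by a few. With each cell thinned to 1000 UMIs (4, 9 and 28 cells had fewer and were dropped), the median cell held 2, 3 and 4 UMIs of the 34 genes. The range from the 10th to the 90th percentile was 0 to 5 in spleen, 1 to 7 in colon 1 and 1 to 8 in colon 2. The highest cell held 12, 15 and 22. The share of cells with none was 10.3%, 4.26% and 2.98%. The whole distribution lay higher in colon, with a variance over mean of 1.59, 1.76 and 1.80. Cells are not replicates, and these values describe the 3 libraries.

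**Figure D4:**
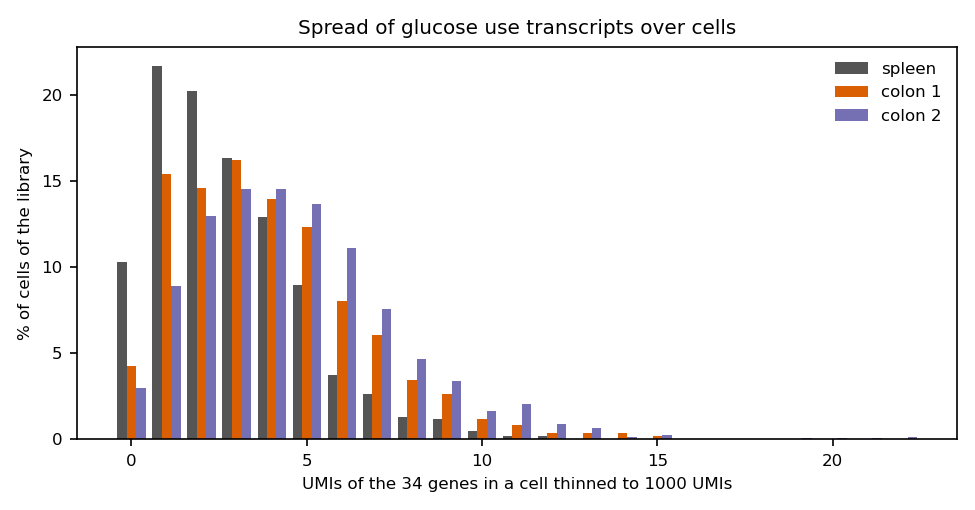
Percent of cells in each library by the number of UMIs of the 34 genes in a cell thinned to 1000 UMIs. The spleen cells have their median at 2, colon 1 at 3 and colon 2 at 4, and the distributions overlap widely.

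Cells were then split within each library by genes outside the group. Cells with 2 or more UMIs of 14 division genes held 1.15, 1.17 and 1.11 times the summed level of the 34 genes in the library's other cells. With 1 or more such UMIs the ratios were 1.03 (0.97 to 1.10), 1.21 and 1.06, and the spleen interval held 1. Cells with 2 or more UMIs of the effector genes S100a4, S100a6 and Itgb1, called effector-like, held 1.22, 1.21 and 1.15 times as much, with 23.1%, 16.9% and 15.7% ribosomal protein UMIs against 31.5%, 19.9% and 18.3% in the other cells. With ribosomal protein genes left out of the totals these ratios were 1.09, 1.17 and 1.12. Cells with a UMI of Il10 or Gzmb, products of suppressive effector Tregs, held 1.14, 1.15 and 1.06 times as much. Without ribosomal protein genes in the totals these were 1.01 (0.88 to 1.17), 1.11 (1.04 to 1.18) and 1.03 (0.99 to 1.06), so that the spleen and colon 2 intervals held 1. Cells with Il1rl1 or Gata3, markers of ST2+ tissue-repair Tregs, held 1.10, 1.005 and 0.93 times. All of these ratios were closer to 1 than the ratios of 1.45 and 1.65 between the tissues, which are scaled by totals with ribosomal protein genes. Those genes took 28.2% of the UMIs in spleen and 17.5% and 16.1% in colon. The summed tissue ratios are not given without them, so on that basis the comparison is not made. By the rule of 2 or more UMIs, dividing cells held 3238, 4723 and 5200 CPM and other cells 2807, 4042 and 4677 CPM. Effector-gene cells held 3232, 4321 and 4852 CPM and the rest 2650, 3570 and 4217 CPM. The dividing class took 14.4%, 14.2% and 10.2% of the cells by this rule and 47.2%, 43.3% and 35% with 1 or more UMIs. The other cells are therefore not shown to be free of dividing ones. Whether the makeup of the cells has a part in the difference between tissues was not tested. The classes differed in depth, with a median of 2019, 1832 and 2090 UMIs in effector-gene cells against 1766.5, 1528.5 and 1774.5 in the rest.

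**Figure D5:**
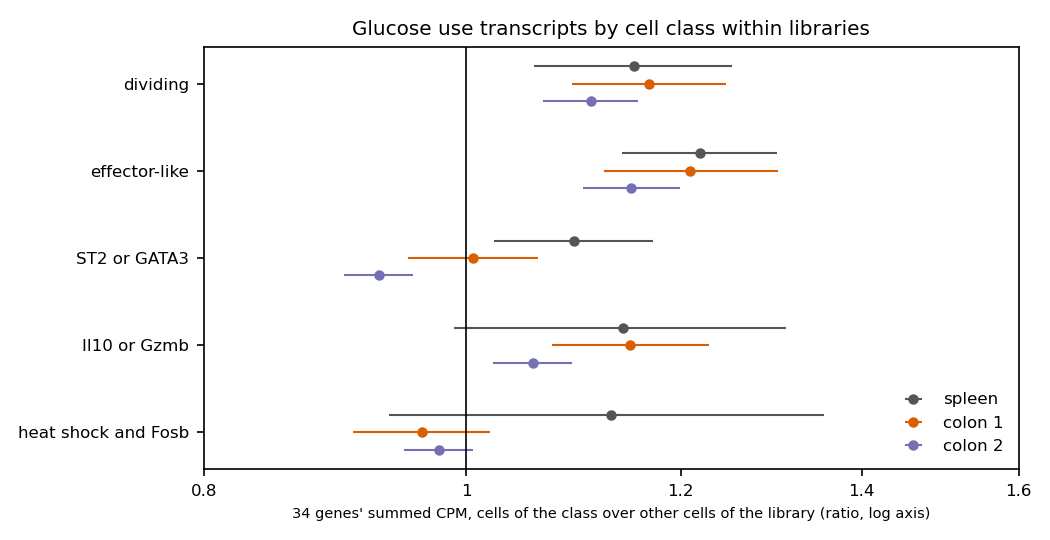
Summed CPM of the 34 genes in cells of a class over the other cells of the same library (ratio, log axis), with exact 95% intervals of counting error. Effector-like and dividing cells lie above 1 in all 3 libraries, at 1.11 to 1.22, as do cells with Il10 or Gzmb at 1.06 to 1.15, and the other classes lie on both sides of 1.

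Few single genes reached 1.5-fold by class in both colon libraries, a size larger than the summed ratios of the classes. Smaller differences of single genes were not counted. Of 24 genes with at least 30 UMIs in both colon libraries, Aldoc was at least 1.5-fold lower in dividing cells of both. Its ratios there were 0.33 (0.06 to 1.03) and 0.50 (0.18 to 1.14). Aldoc was at least 1.5-fold higher in effector-gene cells of both, at 2.11 (0.76 to 8.18) and 2.03 (0.94 to 5.22). Every one of these intervals held 1. Aldoc was also higher in colon cells with a UMI of the stress genes Hspa1a, Hspa1b or Fosb (1.83 and 2.38), and Slc16a3 was lower there (0.41 and 0.48). Each rests on few UMIs, such as 3 and 6 for Aldoc in dividing cells. The share of all genes past 1.5-fold in these splits was not computed.

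The genes around the pathway were taken from lists by function. Of 41 other glucose and glycogen genes, 7 reached the 50 CPM threshold, with a median log2 ratio of 0.0037. Of these, 2 had a ratio of at least 2 in both colon libraries, beside 11.7% of all counted genes. Emb, embigin, a chaperone of monocarboxylate transporters, was read at 111.5, 884.9 and 968.9 CPM, and Slc16a6, another member of the monocarboxylate transporter family, at 27.1, 125.3 and 150 CPM. Slc16a6 was counted only by its colon level, so that its ratio had to lie above 1. Bsg, basigin, the usual partner of MCT1 and MCT4, was read at 90.8, 133.3 and 114.9 CPM (ratios 1.47 and 1.27). The other 2 genes that the naming rule gave, Pgm2 and Prps2, stood at 50.2, 32.7 and 39.8 CPM and at 70.1, 38.3 and 68.4 CPM. Of the NADH shuttle genes, which regenerate NAD+ by moving electrons into mitochondria, 1 of 5 counted was at least 2-fold higher, beside 11.7% of all. This was Got1, the cytosolic transaminase of the malate-aspartate shuttle, at 46.98, 908.04 and 1142 CPM, or 19.3 (14.9 to 25.6) and 24.3 (18.8 to 31.99) times spleen. Got1 was counted only by its colon level, so its direction was set by the filter, and none of the 4 genes counted by their spleen level was 2-fold higher or lower. Mdh1, its cytosolic partner, was read at 209.4, 339.1 and 432.8 CPM (1.62 and 2.07), and the mitochondrial Mdh2 stood at 190, 201.1 and 189.2 CPM. Slc25a11, the malate carrier, stood at 97.1, 91.8 and 90.1 CPM.

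The tricarboxylic acid cycle oxidises the carbon of imported pyruvate, while serine and hexosamine synthesis branch off glycolysis. None of 11 counted genes of the tricarboxylic acid cycle and citrate use was 2-fold higher or lower, beside 11.7% and 4.45% of all counted genes, and for so few genes this count is near the background. Their median log2 ratio was -0.07. Acly, which makes cytosolic acetyl-CoA, was read at 73.3, 99 and 127.9 CPM and Cs, citrate synthase, at 95.5, 124.5 and 113.1 CPM. Ogdh stood at 1119, 1101.9 and 795.8 CPM and Suclg1 at 75.6, 77.4 and 49.3 CPM. Of the serine and hexosamine branches 3 genes were counted, with a median log2 ratio of -0.75. None reached 2-fold in both libraries, which for so few genes is again near the same background. Phgdh, the entry into serine synthesis, stood at 54.1, 69.4 and 87.6 CPM, Shmt2 at 58.9, 35.1 and 28.1 CPM and Ogt at 91.6, 55.1 and 54.1 CPM.

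HIF, the transcription factor of low oxygen, drives many glycolytic genes. Of the 9 counted genes of its list, 8 reached a ratio of 2 in both colon libraries, beside 11.7% of all counted genes, and none was 2-fold lower. Of these 9, 6 (Arnt, Epas1, Egln3, Ero1l, Mxi1 and Bhlhe40) were counted only by their colon level, so that their ratios had to lie above 1. By their spleen level 3 genes counted, and 2 of them, Hif1a and Ddit4, reached a ratio of 2. With ribosomal protein genes left out of the totals, 6 of 11 counted genes reached it, beside 8.04% of all genes counted then. How many of these 11 were counted only by their colon level was not worked out, so nothing is concluded from that count. Hif1a, the oxygen-regulated subunit, was read at 152.9, 375.03 and 314.8 CPM (2.45 and 2.06). Epas1, which encodes HIF-2 alpha, was read at 3.98, 53.5 and 85.3 CPM on 5 spleen UMIs. Egln3, a prolyl hydroxylase that marks HIF for decay and is itself a HIF target, was read at 10.4, 82.2 and 140 CPM (7.94 and 13.6). The repressors Mxi1 and Bhlhe40 were read at 36.6, 180 and 270 CPM and at 46.2, 320 and 394.2 CPM. Within the glycolytic group the known HIF-1 targets did not all share this direction. As examples, Ldha, Pgk1, Aldoa, Slc16a3 and Hk2 were higher in colon and Pdk1 was lower. Other targets were less clear: the colon 1 intervals of Slc2a1 (0.85 to 2.63) and Pfkfb3 (0.46 to 1.77) held 1.

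MYC and MondoA are other regulators of glucose genes. Of 7 counted genes 1 was at least 2-fold higher and 1, Mga, lower, with a median log2 ratio of -0.83. Beside 11.7% and 4.45% of all counted genes, these counts are near the background for so few genes. With TMM or median of ratios scaling 0 were lower, and 2 were with ribosomal protein genes left out of the totals, beside 7.87% of all genes counted then. Mxd1, a MAX partner that opposes MYC, was read at 51.8, 478.8 and 583.2 CPM (9.25 and 11.3). Myc was read at 117.04, 42.3 and 71.2 CPM (0.36 and 0.61), its partner Max at 121.02, 37.5 and 92.4 CPM, and Mga at 82, 32.7 and 40.6 CPM. Txnip, which restrains glucose uptake and is induced by MondoA, was read at 400.5, 227.4 and 221.9 CPM (0.57 and 0.55). Of the 12 counted genes of PI3K, AKT and mTOR signalling, 2 were at least 2-fold higher, beside 11.7% of all counted genes, so the list did not stand apart from the background. Of these 2, Rheb was counted only by its colon level. Rheb, the activator of mTOR complex 1, was read at 42.996, 158.8 and 141.7 CPM (3.69 and 3.30), and Slc3a2, the heavy chain of an amino acid transporter, at 81.2, 280 and 360 CPM (3.45 and 4.44). Akt1 stood at 105.9, 148.4 and 164.4 CPM and Prkab1 at 50.2, 31.1 and 39.8 CPM.

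Other values moved with the tissue. The 19 genes of the dissociation and heat-shock response summed to 4786, 8188 and 9112 CPM, higher in colon, whose cells were digested with enzymes. When cells with a UMI of Hspa1a, Hspa1b or Fosb were left out, 2.27%, 32.8% and 38.1% of the cells were removed. Then 7 of 20 counted genes were past 1.5-fold in each colon library, beside 19.6% of all counted genes. Aldoa was the only one at 2-fold (5%), beside 11.1% of all counted genes. Markers of other cells were summed by list. The macrophage or dendritic cell list of 9 genes stood at 105.1, 236.2 and 232.3 CPM with Csf1r at 0, and the plasma cell list of 4 genes at 62.9, 121.3 and 175.4 CPM. The 6 other lists, which cover CD8 or NK cells, B cells, colon epithelium, granulocytes or mast cells, erythroid or platelet genes, and stroma or endothelium, lay between 1.02 and 126.6 CPM. S100a8, S100a9, Cpa3, Mcpt1, Car1, Phgr1, Slc26a3, Muc2, Fabp2, Cdh5, Kdr, Hbb-bs, Hbb-bt, Alas2 and Ppbp had no UMI in any library. With cells of 2 or more UMIs of all these lists left out, which removed 27.7%, 32.1% and 38.9% of the cells, 7 of 20 counted genes were at least 1.5-fold and 2 at least 2-fold higher. Of all counted genes, 19.2% and 11.7% were. The part of these other cells and of the stress response in the results was not tested beyond these values.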

How the data were processed

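inDrops libraries of sorted Foxp3+ Tregs were made by oligo-dT priming, linear amplification and NextSeq500 sequencing, per the labels' protocols. The deposited table holds UMI counts per gene and cell. TopHat2, SAMtools and the mm10 build are named in the submitters' processing notes. Not given in the sources used here: how each was used, the annotation and how cells were chosen. All 3008 columns matched a labelled cell and 0 were left out; values were whole numbers. No doublet caller was run.

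Counts were summed per library and scaled to CPM. Ratios carry exact conditional binomial intervals, CPM exact Poisson intervals and shares exact Clopper-Pearson intervals (scipy 1.17.1), which cover counting error only. Genes of at least 50 CPM in spleen or in both colon libraries were counted, with a threshold of 2-fold over spleen in each colon library. The counting rule was tested on simulated data. All 34 genes are named, as are, from each context list, the up to 4 counted genes whose log2 ratio is largest in size on the mean of both colon libraries, plus Hif1a, Myc, Txnip and Bsg. Pdk4 was named in addition, after its values were seen. The genes, lists and tests were chosen with earlier results of these data known. Alternatives used edgeR 4.0.16 TMM factors in R 4.3.3, median of ratios, other filters and subsets of cells. Gene positions come from GENCODE vM21 (of 2 genes named Aldoa, the one that holds the RefSeq starts), promoters from RefSeq, and copies from BLAST matches of at least 95% identity over 200 bases. A further class of cells is not reported here.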

Additional observations from a re-analysis of the deposited data

Results flagged for a closer look

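The summed level of the 34 genes in cells with a UMI of Hspa1a, Hspa1b or Fosb, over the other cells of the same library, was 1.1315 in spleen, 0.9627 in colon 1 and 0.9767 in colon 2. It is listed because the spleen library and both colon libraries lay on opposite sides of 1. The difference between tissues was not tested, only 14 spleen cells were in this class, and all 3 intervals held 1 (0.94 to 1.36, 0.91 to 1.02 and 0.948 to 1.006).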

How the results depend on the processing

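No paired analysis was possible because each tissue is 1 sample and no comparison came from a test. The number of counted genes past 2-fold in colon, 2 as reported, was 1 with totals without ribosomal protein genes, 1 without dividing cells, 1 without cells with heat shock or Fosb UMIs, 5 with the 20 CPM filter and 5 with the 30 UMI filter (which both add Hk2, Slc16a1 and Slc16a3), 8 at 1.5-fold and 0 at 3-fold. Of all counted genes, 8.04%, 12.2%, 11.1%, 9.64% and 10.4% were past 2-fold in these settings, in order as far as the 30 UMI filter. At 1.5-fold 19.5% of all counted genes were higher, and at 3-fold 6.49%. Hk2, Slc16a1 and Slc16a3 lay below 20 CPM in spleen, so the 20 CPM filter counted them only by their colon level. Their ratios there had to lie above 1. With 6, 8 and 5 spleen UMIs, they passed the 30 UMI filter through their colon UMIs. The count at least 2-fold lower, 0 as reported, was 1 (Ldhb) with totals without ribosomal protein genes and 2 at 1.5-fold. Of all counted genes, 7.87% and 12% were lower in these 2 settings. Leaving out each colon library in turn gave 3 to 5 higher and 0 to 2 lower genes, with 5 higher without colon 1 and 2 lower without colon 2. The median log2 ratio, 0.46 as reported from the mean of both colon libraries, was 0.49 with TMM, 0.51 with median of ratios, 0.0465 without ribosomal protein genes, 0.58 with the 20 CPM filter, 0.42 without cells with other-cell-type markers, 0.41 without heat shock or Fosb cells, 0.47 without the deepest 5% of cells, 0.52 with each cell weighted equally, 0.37 in thinned cells, and 0.24 to 0.29 with either colon library left out. The cause of these shifts was not tested. The counts at 1.5-fold under the other settings were added after seeing the data: 6 to 12 genes were higher (8 as reported) and 1 to 3 lower (2 as reported), with 1 lower without dividing cells, which were left out in all 3 libraries. Of all counted genes, 12.7% to 27.2% were higher and 10.6% to 20.9% lower. The count of 12 came with the 20 CPM and 30 UMI filters, beside 16.5% and 17.3% of all counted genes. It includes Hk2, Slc16a1 and Slc16a3, with the same limit. Each of the 14 settings kept Ldhb, Pdha1, Pdhb, Pdk1, Pgls and Tkt below spleen, on the mean of both colon libraries or in the 1 that was kept, and this ratio of Slc2a3, Hk1, Gpi1, Pfkfb3, Mpc2, Dlat, Pdk3, G6pdx and Pgd changed sign between settings. Depth limits the scarce genes most: the intervals of Slc16a3, Hk2 and Slc16a1 span several fold, and Pfkm and Pdk2 allow no comparison. With 1 spleen library, differences between animals could not be measured.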
